A study of Mus musculus with 2 samples.

Results

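The miR-30 family was examined in small RNA sequencing of exosomes, small membrane vesicles that cells release, from isolated mouse pancreatic islets. The 10 miRNAs were chosen by name: 5 are 5p arms (mmu-miR-30a-5p, mmu-miR-30b-5p, mmu-miR-30c-5p, mmu-miR-30d-5p and mmu-miR-30e-5p) and 5 are 3p arms (mmu-miR-30a-3p, mmu-miR-30c-1-3p, mmu-miR-30c-2-3p, mmu-miR-30d-3p and mmu-miR-30e-3p). The prefix, which stands for mouse, is left out from here on. All 10 had a row in a table of 2083 entries, of which 677 are known mouse miRNAs. They were picked with earlier results of these libraries known, so their ratios are given as a description. Both groups were C57BL/6 mice. The group named NCD ate normal chow, of which 4% was fat. In the group named HFD the food was rich in fat, at 60%. No genetic modification is named for either group, and the sources used here give neither the age and sex of the mice nor how many mice or islet preparations were used. Isolated islets of both groups were held in medium without serum exosomes, and vesicles were pelleted by ultracentrifugation from supernatant gathered daily. Each diet is represented by 1 library. The values therefore compare 2 libraries, not replicated groups, no test was possible, and intervals cover counting error only.

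A miRNA hairpin is cut into a duplex whose strands, the 5p and the 3p arm, are loaded to unequal extents into Argonaute, the protein that carries the miRNA to its targets. Target choice rests mainly on the seed, bases 2 to 8 of the mature miRNA, so miRNAs with a common seed are grouped as a family. The miR-30 5p arms share their seed and are abundant in epithelial and muscle tissue. In cultured human islet cells the family is known for repression of mesenchymal transcripts, and in mouse beta cells miR-30d is known as a glucose-responsive miRNA that raises insulin gene transcription.

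The mature sequences below, from RefSeq (GRCm38.p6, 5′ to 3′, seed in capitals), are shown because the comparisons turn on which miRNAs share a seed and which differ by a single base. A RefSeq sequence was matched for 7 of the 10 members and is not shown for miR-30b-5p, miR-30d-5p and miR-30d-3p.
miR-30a-5p: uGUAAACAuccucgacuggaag
miR-30e-5p: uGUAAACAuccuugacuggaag
miR-30c-5p: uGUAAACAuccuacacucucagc
miR-30a-3p: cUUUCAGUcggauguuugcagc
miR-30e-3p: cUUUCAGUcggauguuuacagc
miR-30c-1-3p: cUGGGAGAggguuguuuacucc
miR-30c-2-3p: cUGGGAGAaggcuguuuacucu
miR-384-5p: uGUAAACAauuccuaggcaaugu
The 3 matched 5p arms carry the seed GUAAACA. The 3p arms fall into 2 seed groups, UUUCAGU for miR-30a-3p and miR-30e-3p and UGGGAGA for both 3p arms of miR-30c. Counting from 1 at the 5′ end, miR-30a-5p and miR-30e-5p differ by 1 substitution (C13U), and so do miR-30a-3p and miR-30e-3p (G18A). Neither lies in the seed. A read with 1 sequencing error at that base could pass from one name to the other, or be counted under both if mismatches were allowed. miR-30a-5p and miR-30c-5p differ at 5 of 22 compared bases. Among the 595 known miRNAs of the table with a matched sequence, miR-384-5p is the other carrier of GUAAACA, and no miRNA outside the family carries either 3p seed.

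The 6 hairpins stand in 3 pairs on the genome (GRCm38, positions common to RefSeq and GENCODE M21). Mir30a (chromosome 1, 23272269 to 23272339, plus strand) overlaps no other annotated gene, and Mir30c-2 (23291701 to 23291784, plus strand) lies 19361 bases downstream in an exon of the lincRNA gene Gm27028. Mir30c-1 (chromosome 4, 120769534 to 120769622, minus strand) and Mir30e (120772606 to 120772697, minus strand) lie 2983 bases apart in introns of Nfyc, which encodes a subunit of the transcription factor NF-Y. The interval of Mir30e is also annotated on the plus strand as Mir30f. Mir30b (chromosome 15, 68337415 to 68337510, minus strand) and Mir30d (68341208 to 68341289, minus strand) lie 3697 bases apart and overlap exons of non-coding genes of the same strand. Both copies of miR-30c give the same mature 5p sequence, so reads of miR-30c-5p cannot be divided between chromosomes 1 and 4.

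The library totals were 2417589 counts for NCD and 2020831 for HFD, over all entries. Levels are counts per 1000000 counts of the library (CPM), and the matched mature forms are all 22 or 23 bases long. The check of the sample type against marker miRNAs showed islet miRNAs together with marker miRNAs of other tissues. How the latter came into the libraries was not tested. The 5 islet endocrine miRNAs, miR-375-3p among them, summed to 87588 CPM in NCD and 90653 in HFD. The 4 hepatic miRNAs summed to 322086 and 245753 CPM, of which nearly all was miR-122-5p, a hepatocyte miRNA. Other tissues also give miR-30, so a share of the miR-30 reads may come from outside islets, and a different number of vesicles and a different amount of miRNA per vesicle cannot be told apart.

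miR-30 took a larger share of the HFD library, by a larger factor for the 5p than for the 3p arms. The 5 summed 5p arms held 18757 counts in NCD and 25545 in HFD, or 0.776% of all counts (95% exact binomial interval 0.765 to 0.787) and 1.26% (1.25 to 1.28). The ratio of HFD over NCD was 1.63 (exact counting interval 1.60 to 1.66). The 5 summed 3p arms held 2021 and 2205 counts, 0.0836% and 0.109%, a ratio of 1.31 (1.23 to 1.39). A 3p read was thus met by 9.28 5p reads in NCD and 11.6 in HFD. On the log2 scale with a pseudocount of 1 CPM the sums had ratios of 0.70 and 0.38, against a median of 0.33 over the 387 known miRNAs that reached 10 counts in either library, and of 0.16 over the 91 that reached 1000. The summed 3p arms lay close to the first of these medians.

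Of the 9 measured members, those that reached 10 counts in either library, 4 were higher in HFD by at least 2-fold on that log2 scale, 0 were lower and 5 were within 2-fold. The same rule called 25.3% of the 387 measured known miRNAs higher and 9.56% lower (98 and 37 miRNAs, against 86 and 46 with TMM factors and 78 and 52 with median-of-ratios factors), and among the 91 that reached 1000 counts 13.2% higher and 3.30% lower. Of the 5p arms 3 of 5 were past 2-fold, and of the measured 3p arms 1 of 4. The 9 members had a median log2 ratio of 0.57, the 5p arms of 1.25 and the measured 3p arms of 0.28. Of the 9, 8 had a ratio above 1 and 1, miR-30e-3p, below 1. Over the 387 measured known miRNAs the median log2 ratio was 0.33, so a ratio above 1 was the common case. The intervals of miR-30c-1-3p (0.703 to 1.92) and miR-30c-2-3p (0.978 to 1.70) include a ratio of 1. miR-30d-3p had 1 count in each library and supports no ratio.

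**Figure D1:**
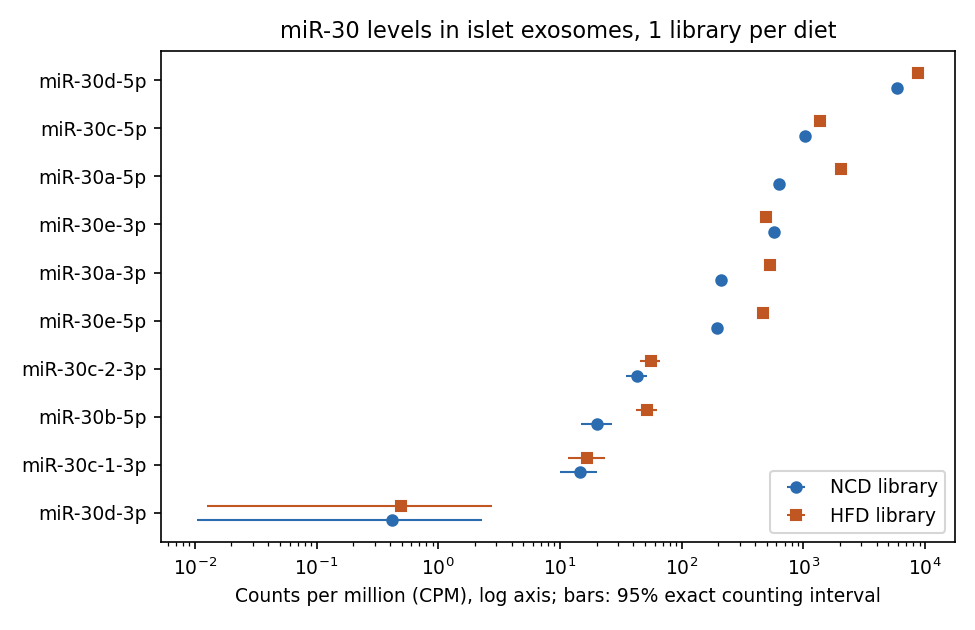
Level of each miR-30 miRNA in CPM (log axis) in the NCD library (circles) and the HFD library (squares), 1 library per diet, with 95% exact counting intervals. miR-30d-5p led in both libraries at 5887 and 8721 CPM, and miR-30a-5p passed miR-30c-5p in HFD.

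miR-30d-5p, the member tied to insulin transcription, was by far the most abundant. Its counts were 14233 (NCD) and 17624 (HFD), which is 5887 and 8721 CPM, and it ranked 21st and 18th among known miRNAs. Its ratio was 1.48 (counting interval 1.45 to 1.51), a log2 ratio of 0.57, within 2-fold. It made up 75.9% of the family's 5p reads in NCD (75.3 to 76.5) and 69.0% in HFD (68.4 to 69.6). Its level was thus higher in HFD while its share of the family was lower, since other members differed by more. Without miR-30d-5p the other 4 summed 5p arms had a ratio of 2.09 (2.02 to 2.17).

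miR-30a-5p, which is known for repression of the autophagy gene Beclin 1, differed most. Its counts were 1533 (NCD) and 4100 (HFD), which is 634 and 2029 CPM. The ratio was 3.20 (3.02 to 3.40), a log2 ratio of 1.68, which ranked 49th from the top among the 387 measured known miRNAs. Its share of the 5p reads was 8.17% in NCD (7.78 to 8.57) and 16.1% in HFD (15.6 to 16.5), and it went from 70th to 42nd place among known miRNAs. The single-base neighbour miR-30e-5p had 471 and 942 counts, or 195 and 466 CPM, a ratio of 2.39 (2.14 to 2.68). miR-30b-5p was rare, with 49 and 105 counts, and had a ratio of 2.56 (1.81 to 3.68), so its interval reaches below 2-fold. Summed over miR-30a-5p and miR-30e-5p, which removes any passage of reads between these names if each read was counted under 1 of them, the ratio was 3.01 (2.86 to 3.17).

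miR-30c-5p had the lowest ratio of the 5p arms. With 2471 and 2774 counts, or 1022 and 1373 CPM, it reached a ratio of 1.34 (1.27 to 1.42). The corresponding log2 ratio of 0.43 was near the median of 0.33 of known miRNAs. In NCD the order of the 5p arms was miR-30d, miR-30c, miR-30a, miR-30e and miR-30b, and in HFD miR-30a stood above miR-30c. All neighbours in these 2 orders had counting intervals that did not overlap. With the 3p arms added, the intervals overlapped between miR-30a-3p and miR-30e-5p in NCD, and from miR-30a-3p over miR-30e-3p to miR-30e-5p in HFD, neighbour by neighbour. They also overlapped between miR-30b-5p and miR-30c-1-3p in NCD and between miR-30c-2-3p and miR-30b-5p in HFD.

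**Figure D2:**
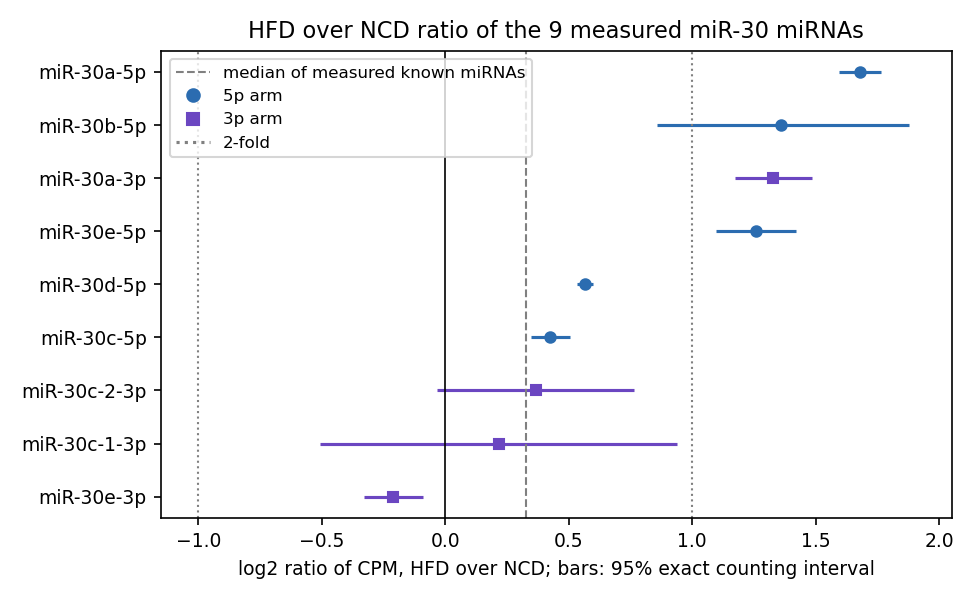
log2 ratio of CPM without pseudocount, HFD over NCD, for the 9 measured miR-30 miRNAs (circles, 5p arms; squares, 3p arms) with 95% exact counting intervals, 1 library per diet. miR-30a-5p, miR-30a-3p and miR-30e-5p have intervals wholly beyond 2-fold (dotted), and miR-30e-3p lies below 0. The dashed line is the median of the 387 measured known miRNAs, which, unlike the points, was taken with a pseudocount of 1 CPM.

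Members encoded side by side did not have the same ratio. Such comparisons within a library do not depend on how the libraries are scaled. For miR-30a-5p, the partner of miR-30c-2 on chromosome 1, there were 0.620 reads per read of miR-30c-5p in NCD and 1.48 in HFD. This was a 2.38-fold difference (exact conditional interval 2.20 to 2.58). For miR-30e-5p, the partner of miR-30c-1 on chromosome 4, the values were 0.191 and 0.340 reads, a 1.78-fold difference (1.57 to 2.02). On chromosome 15, miR-30b-5p had 0.00344 and 0.00596 reads per read of miR-30d-5p, a 1.73-fold difference (1.22 to 2.48). In each comparison the member with fewer reads in NCD had the higher ratio. Reads of miR-30c-5p pool both chromosomes, so the comparisons for chromosomes 1 and 4 share that count and do not compare members of a single locus. Only the pair on chromosome 15 does. The members miR-30d-5p and miR-30c-5p, from different chromosomes, were closer, with a 1.10-fold difference (1.04 to 1.17). miR-30a-5p and miR-30b-5p had an interval of 0.866 to 1.78, which includes parity.

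**Figure D3:**
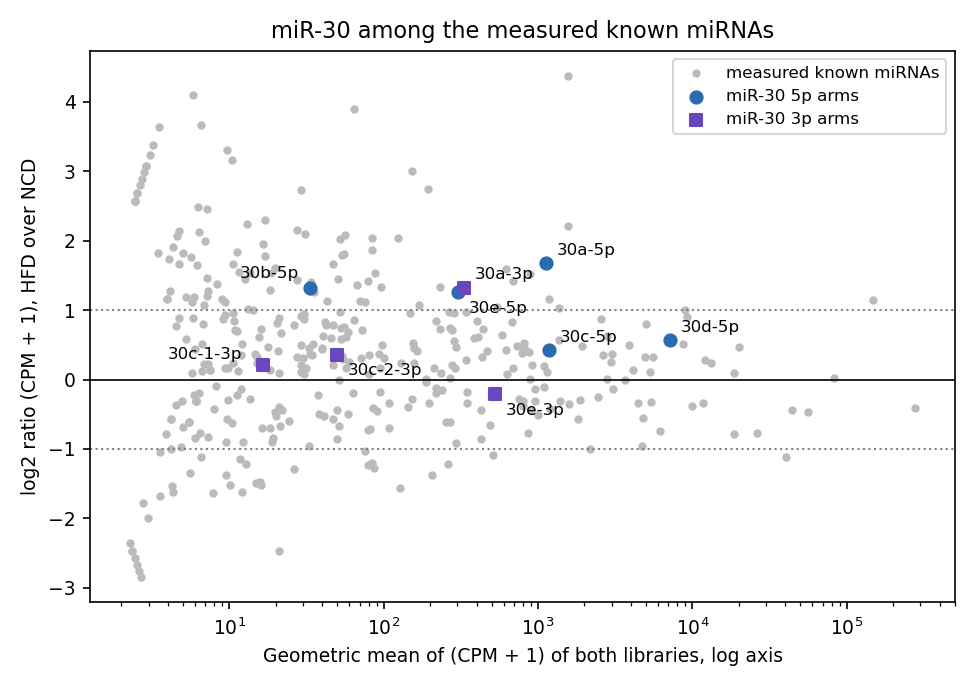
log2 ratio of (CPM + 1), HFD over NCD, against the geometric mean of (CPM + 1) of both libraries (log axis) for the 387 measured known miRNAs (grey) and the measured miR-30 arms (circles, 5p; squares, 3p). miR-30a-5p, at a log2 ratio of 1.68, is among the higher miRNAs of like abundance, below miR-1a-3p at 4.37 and miR-192-5p at 2.22. miR-30c-5p and miR-30d-5p lie within 2-fold (dotted).

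The 3p arms differed among themselves as well, and the 2 that share the seed UUUCAGU went different ways. For miR-30a-3p the counts were 508 (NCD) and 1066 (HFD), or 210 and 528 CPM, with a ratio of 2.51 (2.26 to 2.80). miR-30e-3p had 1373 and 992 counts, or 568 and 491 CPM, a ratio of 0.864 (0.796 to 0.939). miR-30e-3p therefore held 67.9% of the family's 3p reads in NCD (65.9 to 70.0) and 45.0% in HFD (42.9 to 47.1), whereas miR-30a-3p held 25.1% and 48.3%. There were 0.370 reads of miR-30a-3p per read of miR-30e-3p in NCD and 1.07 in HFD, a 2.90-fold difference (2.54 to 3.33). As these names differ by G18A alone, their sum does not depend on how reads were divided between them, provided that each read was counted under 1 name. It was 1881 and 2058, a ratio of 1.31 (1.23 to 1.39).

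The 3p arms of miR-30c, with the seed UGGGAGA, were scarce. miR-30c-2-3p had 104 and 112 counts, a ratio of 1.29 (0.978 to 1.70). The ratio of miR-30c-1-3p was 1.16 (0.703 to 1.92), on 35 and 34 counts. Both intervals allow either direction. Since these arms differ between the copies of miR-30c, they show that both Mir30c-1 and Mir30c-2 gave reads in each library. There were 0.337 reads of miR-30c-1-3p per read of miR-30c-2-3p in NCD and 0.304 in HFD, and the interval of the difference (0.505 to 1.61) includes parity. miR-30b-3p is not among the 10 miRNAs and was looked up after the values were seen. It had 12 and 25 counts, a ratio of 2.49 (1.21 to 5.44), close to that of its 5p arm.

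The balance between arms of the same hairpin differed more between the libraries in Mir30e than in Mir30a or the miR-30c hairpins. The precursors of Mir30e and Mir30a are shown here, from RefSeq, with the annotated mature arms in capitals, because nearly the same pair of arms is joined by different loops.
Mir30e (chromosome 4, minus strand): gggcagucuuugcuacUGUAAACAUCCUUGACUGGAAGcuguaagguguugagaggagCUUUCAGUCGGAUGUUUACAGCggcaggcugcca
Mir30a (chromosome 1, plus strand): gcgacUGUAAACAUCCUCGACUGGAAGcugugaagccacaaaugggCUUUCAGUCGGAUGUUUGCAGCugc
In Mir30e the 3p arm was the more abundant in NCD, at 74.5% of the reads of both arms (exact binomial interval 72.4 to 76.4). In HFD it was 51.3% (49.0 to 53.5), an interval that includes equal use of both arms. The odds of a 3p read were 0.361 times those in NCD (exact conditional interval 0.314 to 0.415). In Mir30a the 3p share was 24.9% (23.0 to 26.8) in NCD and 20.6% (19.5 to 21.8) in HFD, an odds ratio of 0.785 (0.694 to 0.887). The miR-30c hairpins together gave 5.33% (4.5 to 6.26) and 5.0% (4.24 to 5.85) 3p reads, an odds ratio of 0.936 (0.732 to 1.20). In Mir30d the 3p arm was almost absent, with 1 read against 14233 of the 5p arm in NCD and 1 against 17624 in HFD.

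**Figure D4:**
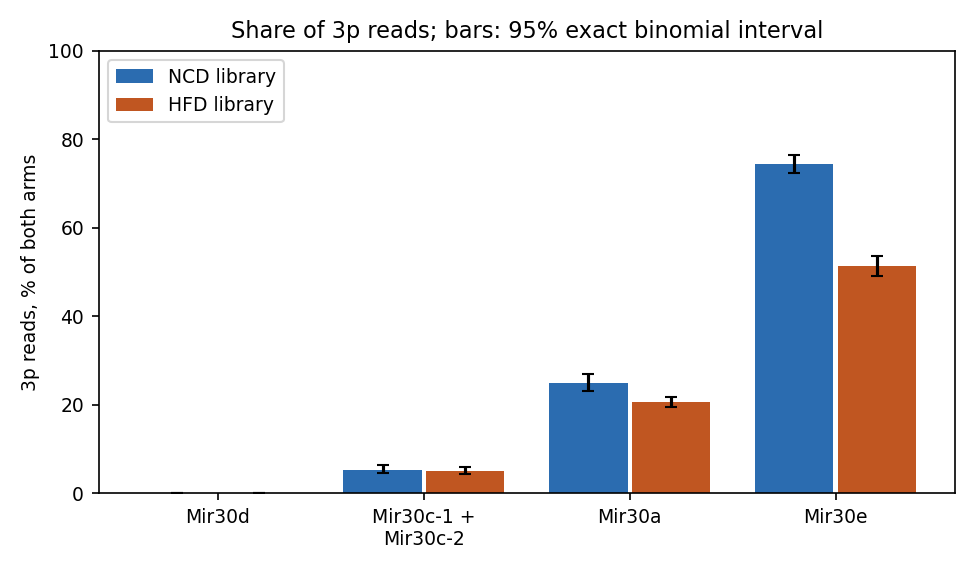
Share of 3p reads among the reads of both arms for 4 miR-30 hairpins or pairs of hairpins, in NCD and HFD, 1 library per diet, with 95% exact binomial intervals. Mir30e gives 74.5% and 51.3%, Mir30a 24.9% and 20.6%, the miR-30c hairpins about 5% in both, and Mir30d practically none.

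With Mir30a and Mir30e summed, which under the same proviso is insensitive to reads passing between their nearly equal arms, the 3p share was 48.4% (46.8 to 50.0) in NCD and 29.0% (27.9 to 30.1) in HFD, an odds ratio of 0.435 (0.401 to 0.472). This merged share also depends on the mix of the 2 hairpins. Mir30a had the lower 3p share and made up more of the merged reads in HFD. Its 5p and 3p counts were 1533 and 508 in NCD, and 4100 and 1066 in HFD. Those of Mir30e were 471 and 1373 in NCD, and 942 and 992 in HFD. The merged odds ratio is therefore not a measure of arm balance within either hairpin. Arm balance also differed between the libraries for other miRNAs. Among 33 hairpin names whose 5p and 3p arms both reached 100 counts in either library, the log2 odds ratio of 3p over 5p reads was -1 or below in 4, or 12.1%, and 1 or above in 6, or 18.2%. The median was 0.27. Mir30e, at -1.47, was the second lowest of these 33, after miR-335 at -2.60, and Mir30a was at -0.35. The larger arm was the same in both libraries for Mir30e, and differed between the libraries for 1 of the 33.

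**Figure D5:**
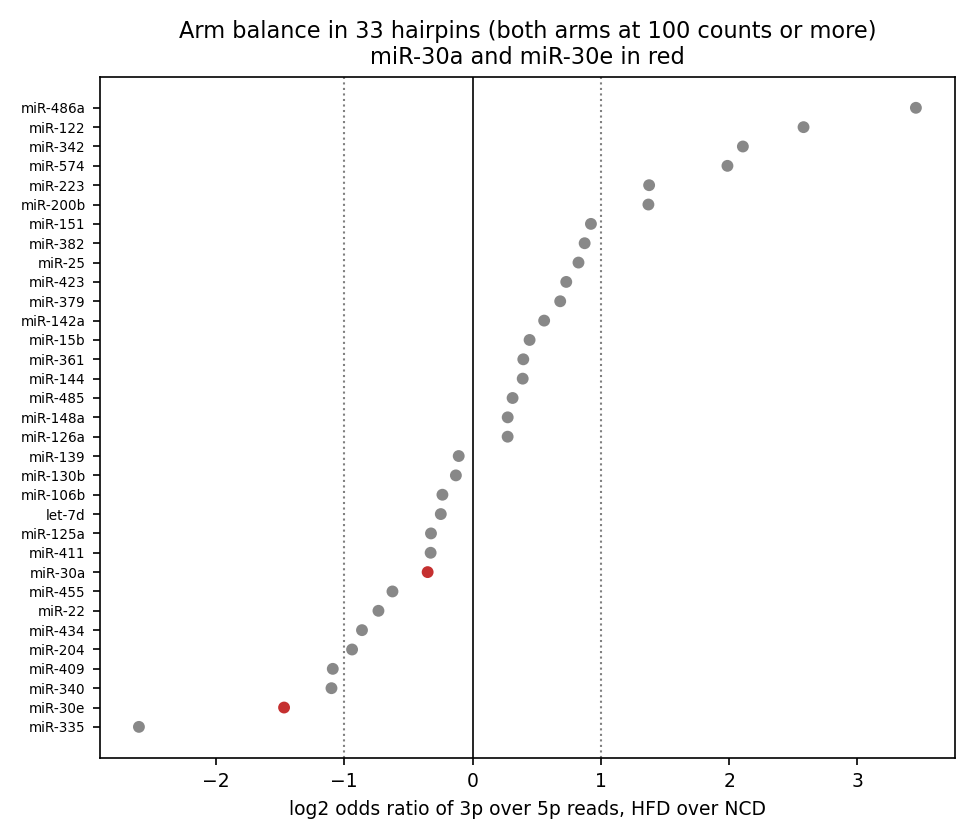
log2 odds ratio of 3p over 5p reads, HFD over NCD, in 33 hairpins with both arms at 100 counts or more in either library, 1 library per diet, in order of value. miR-30e and miR-30a are in red, at -1.47 and -0.35, and the dotted lines mark -1 and 1.

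Base composition moved with the ratios of these libraries. Over the 180 known miRNAs that reached 100 counts in either library and had a matched sequence, the log2 ratio was lower by 0.39 for each 10 points of GC content, with a Pearson correlation of -0.41 across miRNAs, which all come from the same 2 libraries. The 7 matched miR-30 members ran from 40.9% GC in miR-30e-5p to 54.5% in miR-30c-1-3p. miR-30a-5p and miR-30e-3p had the same GC content of 45.5% and log2 ratios of 1.68 and -0.21. With the linear GC trend taken out, the log2 ratio of miR-30a-5p was 1.57, that of miR-30a-3p 1.40 and that of miR-30c-5p 0.24, while miR-30e-5p came just within 2-fold at 0.97. The log2 odds ratio of the arms of Mir30e was -1.29 after this step, which was added after the data were seen.

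The miRNA outside the family with the 5p seed, miR-384-5p, known from brain, had 14 counts in each library and a ratio of 1.20 (0.529 to 2.71). Its addition to the matched carriers of GUAAACA, miR-30a-5p, miR-30c-5p and miR-30e-5p, gave 4489 and 7830 reads, a ratio of 2.09 (2.01 to 2.17). That sum is not the total of the seed. It leaves out miR-30b-5p and the most abundant member, miR-30d-5p, for which no sequence was matched. With these and without miR-384-5p, the 5 summed 5p arms had 18757 and 25545 counts, a ratio of 1.63. The 3 known miRNAs whose log2 ratio was nearest to the 0.70 of the summed 5p arms, out of 86 others that reached 1000 counts and over these 2 libraries only, were miR-382-3p at 0.73, miR-494-3p at 0.64 and miR-7a-5p at 0.63. With 2 libraries such likeness is a single ratio.

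Lists that meet the family's known roles were read beside it. Over all 387 measured known miRNAs, 25.3% were past 2-fold higher and 9.56% past 2-fold lower, and the median log2 ratio was 0.33. Counts in these short lists, and in the tissue lists that follow, are to be read against that general lean toward HFD. Of the 4 miRNAs reported to maintain insulin expression in mouse beta cells, 2 were past 2-fold higher and 0 past 2-fold lower, and the median log2 ratio was 0.68. miR-148a-3p, the most abundant, had a ratio of 2.21 and also the highest, miR-26a-5p of 1.22 and miR-24-3p, the lowest, of 1.01. Of 10 miRNAs linked to the epithelial state 8 were measured. Of these, 3 were past 2-fold higher and 0 past 2-fold lower, and the median was 0.92. miR-200c-3p and miR-200b-3p, the most abundant, had ratios of 1.39 and 2.04, and the extremes were miR-203-3p at 4.17 and miR-34c-5p at 0.427 (0.120 to 1.26) on 14 and 5 counts.

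Marker miRNAs of other tissues were read as well, and their sums differed between the libraries to unequal extents. The 4 striated muscle miRNAs summed to 440 CPM in NCD and 7674 in HFD, with 4 of 4 past 2-fold higher, although miR-133b-3p had 0 counts in NCD. Most of that sum was miR-1a-3p, named after its values were seen, with 341 CPM in NCD and 7084 in HFD. The 3 acinar miRNAs summed to 84.4 and 249 CPM, with 3 of 3 past 2-fold higher. Of the 4 hepatic miRNAs 2 were past 2-fold higher, while their sum was lower in HFD, at the 322086 and 245753 CPM given above, since miR-122-5p makes up most of it. The 3 listed erythroid miRNAs, miR-451a, miR-144-3p and miR-144-5p, summed to 7094 and 13043 CPM. That list leaves out miR-486a-5p (51624, then 38230 CPM, log2 ratio -0.43) and miR-486b-5p (65973, then 47664 CPM, log2 ratio -0.47). Each was more abundant than the listed sum and lower in HFD, so the erythroid sum holds for its listed miRNAs only. The 2 endothelial miRNAs summed to 6396 and 12750 CPM and the 5 mesenchymal to 3277 and 3656. The 5 immune summed to 1573 and 2304, of which 4 were measured and 2 higher. Of the listed erythroid, endothelial, mesenchymal and islet endocrine miRNAs 0 were past 2-fold either way, with miR-126a-3p just under it at a log2 ratio of 0.997. That count does not extend to unlisted arms. Past 2-fold higher were miR-486a-3p (53.4, then 433 CPM), miR-486b-3p (2.07, then 29.2 CPM) and miR-145a-3p (50.9, then 149 CPM). The 5p arms of miR-486a and miR-486b, given above, went the other way, within 2-fold. The part of these tissues in the miR-30 ratios was not tested. Within one hairpin or one pair of members, a change of the whole library's scale leaves the values above as they are. This covers scale only, and the part of a different mix of tissues in those values was not tested either.

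In the authors' deposited table the 4 members past 2-fold were also those with an FDR under 0.05, all higher in HFD. Over all 2083 entries of that table, 374 or 18.0% had such an FDR, 8.26% with a higher value in HFD. Only 677 of these entries are known miRNAs, and the others hold 1.06% of the counts in each library. These shares are therefore not a like base for the members, and none was computed over measured known miRNAs. By the 2-fold rule above, 25.3% of the 387 measured known miRNAs were higher. There miR-30a-5p had a log2 fold change of 1.53 and miR-30e-3p of -0.36, on TMM scaling. The FDR of miR-30d-5p in the authors' deposited table was 0.155. These values rest on an assumed spread between libraries, as given with the processing, and carry no information on mice or cultures.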

How the data were processed

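Small RNA of islet exosomes was sequenced as 1 library per diet (NCD, HFD). An NEBNext small RNA kit was used, per the labels' protocols. The submitters' processing notes name GRCm38 as the build. For the aligner, the caller and the treatment of reads with several matches, nothing is given in the sources used here. miR-199a-3p and miR-199b-3p have equal counts in both libraries, so a shared read may stand under more than 1 name. Raw counts per mature miRNA were deposited by the authors with, per the file headers, TPM values, which equalled counts per 1000000 of the table. The table also gives the authors' p-value, FDR and log2 fold change. edgeR 4.0.16 (exact test, TMM, assumed coefficient of variation 0.1) gave the deposited p-values on all 2083 entries to within 6.55e-15.

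From the counts, CPM, log2 ratios with a pseudocount of 1 CPM, Clopper-Pearson 95% intervals and conditional odds ratio intervals were computed (Python 3.11.15, scipy 1.17.1). Called meant a log2 ratio of 1 either way at 10 or more counts in either library. No molecular identifiers are named, so PCR copies may count as reads. All 10 members were named, with miRNAs of the same seed, the 3 nearest in ratio, and of the insulin and epithelial lists the 2 most abundant members and the extremes. Tissue lists are given as sums and counts. Members and lists were chosen with earlier results of these data known. Alternatives were TMM factors, median-of-ratios factors (DESeq2 1.42.0), other totals, deposited TPM, pseudocounts of 0.1 and 10 CPM, other count minimums, merged names and a linear GC trend (sequences for 87.0% of 207 miRNAs).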

Additional observations from a re-analysis of the deposited data

How the results depend on the processing

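No paired analysis was possible because there is 1 library per diet, and for the same reason no library could be left out. The scaling moved all ratios together, by -0.15 (log2) with TMM factors, -0.26 with median-of-ratios factors and -0.09 when the 5 leading miRNAs of each library were left out of the totals. In this order the summed 5p arms had log2 ratios of 0.56, 0.45 and 0.62 in place of 0.70, the summed 3p arms 0.24, 0.13 and 0.30 in place of 0.38, and the median of the 9 measured members 0.42, 0.31 and 0.48 in place of 0.57. Of the 387 measured known miRNAs, 86, 78 and 93 were then higher and 46, 52 and 46 lower by 2-fold, in place of 98 and 37, and their median was 0.18, 0.07 and 0.24. The number of members past 2-fold was 4 under each setting run except 3 with median-of-ratios factors, where miR-30e-5p stood at just under 1, and 3 when the whole counting interval had to lie beyond 2-fold, which leaves out miR-30b-5p. miR-30c-1-3p changed sign with median-of-ratios factors, at -0.04. With the GC trend removed, 2 in place of 3 of the 7 members with a sequence were past 2-fold. This step was not run on the sums. With miR-30e-5p merged into miR-30a-5p, their share of 5p reads was 10.7% in NCD and 19.7% in HFD in place of 8.17% and 16.1%. The log2 odds ratio of Mir30e, -1.47, was -1.20 with Mir30a merged, chosen after the data were seen, and -0.32 over the whole family, which is mostly miR-30d-5p. The merged value also reflects the different mix of Mir30a and Mir30e reads in the 2 libraries. Depth limits miR-30d-3p, miR-30b-5p and both 3p arms of miR-30c.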
